A study of Mus musculus with 4 samples.

Results

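DHX9 is a helicase that opens base-paired RNA, and many mouse protein-coding genes share their stretch of the genome with a long noncoding RNA (lncRNA) gene. A DHX9 peak in such a stretch can belong to either transcript. The peaks described here are the autosomal DHX9 peaks whose midpoint lay in the annotated spans of both an lncRNA gene and a protein-coding gene. There were 1312 of them among 42236 autosomal peaks (3.11%) and 43106 peaks in all. They were chosen by position alone, without regard to strand. Another 374 peaks that met the rule lay in Airn, Kcnq1ot1, Npas3, Nfia or Nfib and were left out.

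The peaks came from FLASH, a crosslinking and immunoprecipitation method in which ultraviolet light fixes proteins to RNA and the recovered RNA is sequenced with its strand. The cells were neural progenitor cells derived from male mouse embryonic stem cells (line WT26, C57BL/6x129sV background) and kept in medium with EGF and FGF2. There were 2 libraries with a rabbit antibody to DHX9 and 2 with rabbit IgG as the control, replicates A and B of each, all from the 1 untreated line. The authors deposited 1 peak list for the 4 libraries, so there was no value per library, the depth was unknown, no difference could be tested against replicate error, and a stretch without a peak may be an unexpressed one. Of 13 neural progenitor markers, 7 carried a peak: Slc1a3 122, Ptprz1 64, Notch1 21, Fabp7 4, and Cdh2, Sox9 and Vim 1 each. Nes, Sox2, Pax6, Hes1, Hes5 and Msi1 carried none. None of 8 pluripotency markers and 1 of 6 mature neuron markers carried a peak (Map2, 46 peaks). The share of all genes with a peak is not given here, so these counts do not identify the cells.

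An antisense lncRNA is transcribed from the opposite strand of the gene it overlaps, so the strand of a peak separates the RNAs of such a pair. Where both genes run the same way, strand does not separate them. Some lncRNAs are also the primary transcripts of microRNAs, whose hairpins are short double-stranded stems within the longer RNA. The protein-coding gene of a pair is called the host gene below, whichever of the 2 genes is the longer.

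The sequences that bear on the strand of the peaks come first. A 28-base plus-strand peak (chr1:162223434-162223461, mm10) lay in Dnm3os, an lncRNA transcribed antisense to the dynamin gene Dnm3 and known as the precursor of microRNAs. The peak lay within the Mir214 hairpin (chr1:162223368-162223477, plus strand). It covered all 22 bases of mature miR-214-3p. Both sequences are from RefSeq (GRCm38.p6). In the hairpin, the bases under the peak are in capitals, and in the mature microRNA the capitals mark the seed, bases 2 to 8.
Mir214 hairpin: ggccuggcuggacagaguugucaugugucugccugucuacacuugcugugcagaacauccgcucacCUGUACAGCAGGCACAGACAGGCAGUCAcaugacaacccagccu
miR-214-3p: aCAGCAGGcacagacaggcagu

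The next 3 sequences show where peaks overlapped the window around an annotated start site of an lncRNA. Each is a RefSeq promoter window (GRCm38.p6) of 250 bases before to 50 bases after a start site, written 5′ to 3′ on the strand of the lncRNA, with the bases under peaks in capitals. In the Gm51785 window (chr10:120461649-120461948, plus strand), 3 minus-strand peaks covered 204 of the 300 bases, on the strand of the host gene Hmga2, which encodes a chromatin protein of the high mobility group. Gm51785 spans bases 120451004 to 120463192, so this start site lies inside the gene and is not its first base. The start site itself was under no peak. In the Egfros window (chr11:16830629-16830928, minus strand), a plus-strand peak, on the strand of the epidermal growth factor receptor gene Egfr, covered 68 bases including the start site. Egfros spans bases 16809648 to 16830750, so this start site too lies inside the gene and is not its first base. In the 2900060B14Rik window (chr1:118459216-118459515, minus strand), a minus-strand peak covered 54 bases. This peak was on the lncRNA's own strand and opposite to the peaks of its host gene Clasp1, which encodes a microtubule-binding protein.
Gm51785: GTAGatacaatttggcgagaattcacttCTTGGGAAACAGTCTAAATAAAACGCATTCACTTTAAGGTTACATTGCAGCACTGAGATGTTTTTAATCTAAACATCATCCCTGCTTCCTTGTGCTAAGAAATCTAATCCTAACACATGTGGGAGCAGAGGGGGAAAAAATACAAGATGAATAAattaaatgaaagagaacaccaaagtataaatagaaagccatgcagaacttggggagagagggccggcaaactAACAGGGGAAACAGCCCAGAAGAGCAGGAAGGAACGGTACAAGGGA
Egfros: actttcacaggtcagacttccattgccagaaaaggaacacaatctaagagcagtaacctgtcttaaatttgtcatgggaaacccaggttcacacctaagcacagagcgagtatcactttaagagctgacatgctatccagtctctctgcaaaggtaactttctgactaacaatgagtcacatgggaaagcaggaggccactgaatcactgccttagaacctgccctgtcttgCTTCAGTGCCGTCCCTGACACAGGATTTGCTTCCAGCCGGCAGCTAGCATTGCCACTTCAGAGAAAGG
2900060B14Rik: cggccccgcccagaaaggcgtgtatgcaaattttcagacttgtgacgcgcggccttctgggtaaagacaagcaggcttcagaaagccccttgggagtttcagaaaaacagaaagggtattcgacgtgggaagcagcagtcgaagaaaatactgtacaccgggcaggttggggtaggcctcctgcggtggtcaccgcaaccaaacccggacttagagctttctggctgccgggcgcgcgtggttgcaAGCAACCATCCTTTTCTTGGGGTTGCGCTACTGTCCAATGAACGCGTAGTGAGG

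In all, 20 of the 1312 peaks overlapped a RefSeq promoter window, 14 of the 18 windows being those of lncRNA genes. The same count over all autosomal peaks is not given here, so the 20 cannot be called many or few. An lncRNA that lies within its host has its start in the shared stretch by position, which favours lncRNA windows. The windows' GC content was 40.7% for Gm51785, 47.7% for Egfros and 56% for 2900060B14Rik, where the median of all 32851 windows was 52.7%.

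The shared peaks fell in 291 lncRNA genes and 261 host genes, in 294 pairs. A single gene of each kind held 1288 of the peaks, and 24 lay in more. The lncRNA lay wholly within the host gene in 202 pairs (969 peaks), the genes overlapped in part in 80 (296 peaks), and the host lay within the lncRNA in 12 (61 peaks). Most of the lncRNA genes had a symbol of Gm or LOC and a number (227 genes, 1067 peaks). They are called predicted below, by the symbol alone and not by the evidence for the transcript. Riken clones made up 41 (175 peaks) and lncRNAs named as opposite-strand or antisense RNAs of a gene 14 (59 peaks). There were 4 host genes of small RNAs with 7 peaks, Gas5 among them with 3, and 5 other named lncRNAs. The plus strand carried 624 of the shared peaks and the minus strand 688.

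The peaks were unevenly spread over the hosts. The median host had 2 shared peaks, 98 had 1, 38 had 10 or more, and 15 hosts held 498 (38.0%). Ctnnd2, which encodes the adherens junction protein delta-catenin (chr15:30172534-31029344, plus strand), had the most, with 85 of its 131 peaks. Of these, 56 lay in Gm41284 and 22 in Gm31953, both annotated on the plus strand like Ctnnd2. The ubiquitin-conjugating enzyme gene Ube2k had 43 of 53 in Gm40309. Dennd2a, whose product activates a Rab GTPase, had 44 of 101, of which 23 were in 8030453O22Rik and 21 in Gm52860. Adnp, a neuroprotective transcription factor gene, and the extracellular matrix gene Tnc shared every peak, 29 with Gm20716 and 24 with 8030451A03Rik. Gm20716 also spans Dpm1, where it held another 6 peaks on the same strand. Its span (chr2:168180965-168230379) begins at the first base of Adnp and ends at the last of Dpm1. Both genes lie wholly within it on its own strand, so all their peaks are shared by construction.

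Each of the 15 hosts had its shared peaks on 1 strand. Srgap2, a regulator of neuronal migration, had all 29 on the minus strand, as did Hmga2 and the GTPase regulator gene Stard13, each with 29. The extracellular olfactomedin gene Olfm2 had 27, the chromatin regulator gene Ankrd11 19, and Tcf7l1, a Wnt pathway transcription factor gene, 18 (in Gm31249), all on the minus strand. Of the peaks of Stard13, 18 lay in Gm3704. Tecr, an enzyme gene of fatty acid elongation, had 18 of 19 in D830024N08Rik, also on the minus strand. The membrane glycoprotein gene Gpm6a had 19 on the plus strand, all in LOC115486929. Only 5 of the 261 hosts had shared peaks on both strands: Nr6a1, Ndufs1, Ints2, Kansl1l and Tenm3.

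**Figure D1:**
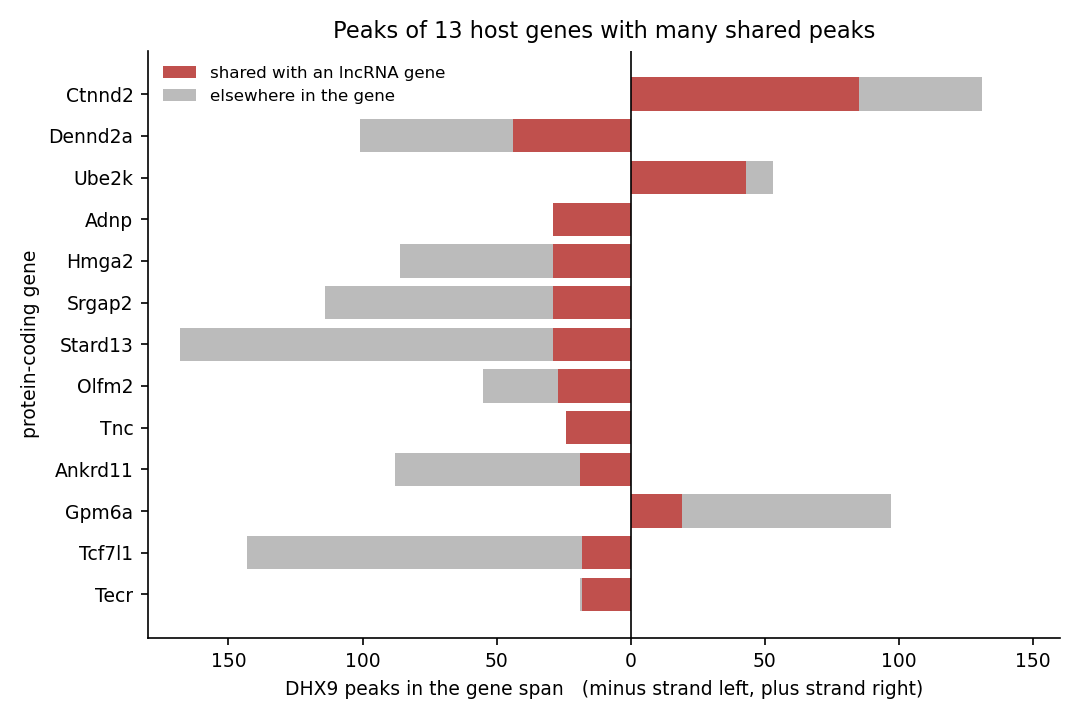
Peaks in 13 of the 15 host genes with the most shared peaks. Bars run left for minus-strand and right for plus-strand peaks (number of peaks); the part shared with an lncRNA gene is red and the part elsewhere in the gene grey. No gene shown has peaks on both sides, and Adnp and Tnc have no grey part.

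The first strand comparison set each shared peak against the host gene's peaks elsewhere. The host's strand was that of most of its peaks that lay in no other annotated gene, where there were at least 3. Of 1007 shared peaks in 167 such hosts, 998 (99.1%) were on the host's strand and 9 (0.894%, 95% Wilson interval 0.471 to 1.69%) on the opposite one. By the same measure, 44 of 33771 peaks (0.13%, interval 0.0971 to 0.175%) that lay in a single protein-coding gene and no other gene were opposite to the rest of their gene. Peaks of 1 gene are not independent, and these intervals cover counting error only. The other 305 shared peaks were in hosts with too few peaks elsewhere.

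The 9 exceptions lay in 8 lncRNA genes. There were 2 in 5031425E22Rik at the start of Kmt2e, a chromatin regulator gene with 10 plus-strand peaks elsewhere. The rest were single peaks: in Kcnd3os at the potassium channel gene Kcnd3, which had 127 plus-strand peaks elsewhere; in E130307A14Rik at Rev3l, a DNA polymerase gene with 107; in Gm20045 at Dedd (13, with 1 on the minus strand); in Gm5914 at Ctcf, the insulator protein gene (12); in 2900060B14Rik at Clasp1 (12); in 9430091E24Rik at Pdpr (3); and in Ino80dos at Ndufs1, a respiratory complex I gene with 3 minus-strand peaks. Several of these lncRNAs ran on beyond the host. There, 5031425E22Rik had 37 peaks, Gm5914 16, E130307A14Rik 13, Kcnd3os 3 and Gm20045 2, every one on the minus strand, the strand of their shared peaks. Ino80dos had 43 outside, all plus, like 1 of its 3 shared peaks.

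At Ndufs1 the peaks of the 2 strands met. The plus-strand peak ended at base 63149384 of chromosome 1 and a minus-strand peak began at base 63149377, so that 8 bases were covered on both strands. Over all lncRNA genes, 10 had peaks outside any protein-coding gene. In 9 of them the outside and the shared peaks were each on a single strand, and it was the same strand in 8. The exception was 3110056K07Rik, with 9 minus-strand peaks outside and 1 plus-strand peak in Psma3, a proteasome subunit gene annotated on the plus strand.

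The second comparison used annotated strands, which were known for 201 of the lncRNA genes and 203 of the hosts. They matched the strand of the peaks in 1816 of 1827 protein-coding genes that could be checked (99.4%), and in each of the 127 hosts with both. Of the 1312 shared peaks, 590 lay in antisense pairs only, 212 in same-strand pairs only and 11 in pairs of both kinds. For 499, the strand of 1 gene or both was not used here. Of these, 414 were on the strand of the host's other peaks, 5 were opposite, and 80 could not be placed.

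In antisense pairs, DHX9 peaks were mostly on the strand of the protein-coding gene. Of the 590 peaks, 561 (95.1%) were on the host's strand and 29 (4.92%, 95% Wilson interval 3.44 to 6.97%) on that of the lncRNA. Among peaks in 1 protein-coding gene only, 137 of 29046 (0.472%) were opposite to its annotated strand. Of peaks in 1 lncRNA gene only, 24 of 549 (4.37%) were opposite to that of the lncRNA. The 29 lay in 11 lncRNA genes, and 3 of these held 21. Without Nr6a1os, which held 12, 17 of 576 peaks (2.95%) were on the lncRNA's strand.

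Counted by pair, 127 of the 138 antisense pairs had every shared peak on the host's strand, 9 had every one on the lncRNA's, and 2 had both. With at least 3 shared peaks, these numbers were 52, 2 and 1 of 55. Srgap2 with Gm51644 (29 peaks), Olfm2 with Gm39299 (27), Tnc with 8030451A03Rik (24), Dennd2a with 8030453O22Rik (23) and Hmga2 with Gm51785 (23) were the antisense pairs with the most peaks, every one on the minus strand of the host. Ptprz1, a receptor phosphatase gene of neural progenitors, had 13 peaks in the antisense Gm30493, all on its own plus strand. In Egfros, all 7 peaks were on the strand of Egfr. In same-strand pairs, all 212 peaks were on the common strand, and the list cannot assign them to either gene.

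The antisense lncRNAs were also counted by the kind of name they carry. Of the antisense lncRNAs with a Gm or LOC number, 3 of 100 had a peak on their own strand, with 3 of 424 peaks (0.708%). Of the Riken clones, 4 of 26 did, with 8 of 131 peaks (6.11%). Of those named for the host gene, 3 of 10 did, with 17 of 45 peaks (37.8%), namely Nr6a1os, Dnm3os and Kcnd3os. The other 7, Egfros, Grip1os1, Far1os, Tbc1d22bos, Pard3bos1, Nckap5los and Dnmt3aos, had peaks on the host's strand only. These shares rest on few genes: 12 of the 17 peaks were in Nr6a1os.

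**Figure D2:**
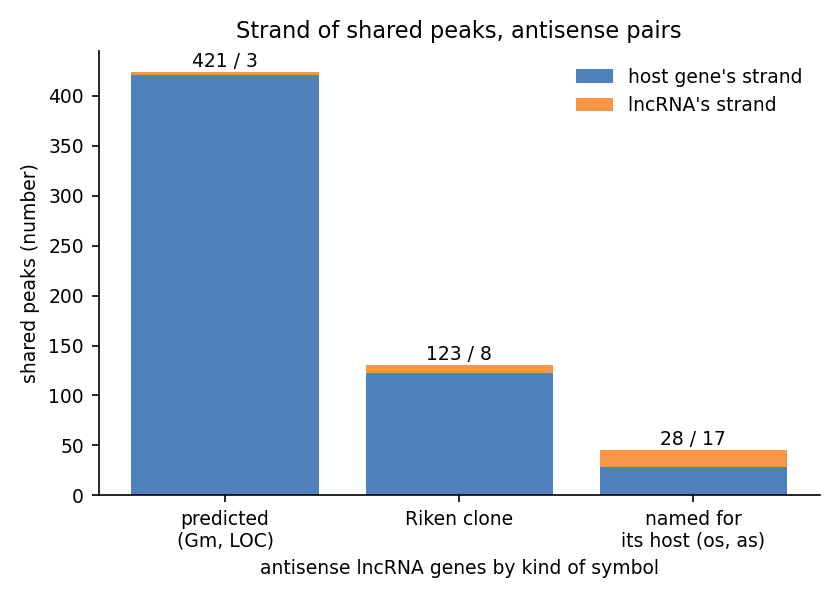
Shared peaks (number) in antisense pairs, by the kind of lncRNA symbol; blue, on the host gene's strand; orange, on the lncRNA's strand, with both numbers above each bar. The lncRNA's strand held 3 of 424 peaks for predicted lncRNAs, 8 of 131 for Riken clones and 17 of 45 for those named for their host.

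Nr6a1os had the most peaks on its own strand. It lies within Nr6a1, the gene of the orphan nuclear receptor GCNF, on chromosome 2 (38815972 to 38921863, plus strand; Nr6a1 38723369 to 38926461, minus strand). The plus strand had 12 peaks and the minus strand 2, and the 97.2 kb of Nr6a1 outside the lncRNA had none. One minus-strand peak (bases 38850899 to 38850992) shared 88 bases with a plus-strand peak (38850852 to 38850986). Nr6a1os holds the hairpins of Mir181a-2 and Mir181b-2 on its strand. The nearest plus-strand peak was 1749 bases from the Mir181a-2 hairpin and 761 from that of Mir181b-2. Within 5000 bases of each hairpin there were 7 plus-strand peaks, and none lay on a hairpin.

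Dnm3os and 2900089D17Rik followed. Dnm3 spans 495.9 kb of chromosome 1 (161982450 to 162478321, minus strand) and carried 4 peaks, all on the plus strand within the 7.93 kb of Dnm3os (162217623 to 162225550). They were 111, 173, 157 and 28 bases long, the shortest being the one on miR-214-3p shown above. The nearest peak to the other hairpin in Dnm3os, Mir199a-2, was 697 bases away. No other shared peak overlapped a hairpin of the RefSeq table, and these 4 hairpins were the only ones within the 291 lncRNA genes on a known, matching strand. Bri3 (chr5:144244437-144264573, plus strand) had 5 peaks, all on the minus strand of 2900089D17Rik (chr5:144241781-144256155).

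The other 8 antisense lncRNAs with an own-strand peak had 1 each. They included Snhg9, a host gene of small nucleolar RNAs within the ribosomal protein gene Rps2. Its single peak (chr17:24719672-24719809, minus strand) had its midpoint in Snora78 as well. Gm46093 had 1 peak on its own plus strand and 1 on the annotated minus strand of its host Kansl1l, a gene related to a chromatin regulator. The 2 peaks of Kansl1l elsewhere were both on the plus strand, so by those the minus-strand peak was the odd one. They were too few for the first comparison. The remaining lncRNAs were 4930555F03Rik at Tenm3, A630072M18Rik at Rsbn1l, and Kcnd3os, Gm20045, Gm5914 and 9430091E24Rik from the first comparison, so 4 peaks were opposite by both measures. Nr6a1, Dnm3 and Bri3 were without a value in the first comparison, since none of them had a peak elsewhere.

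**Figure D3:**
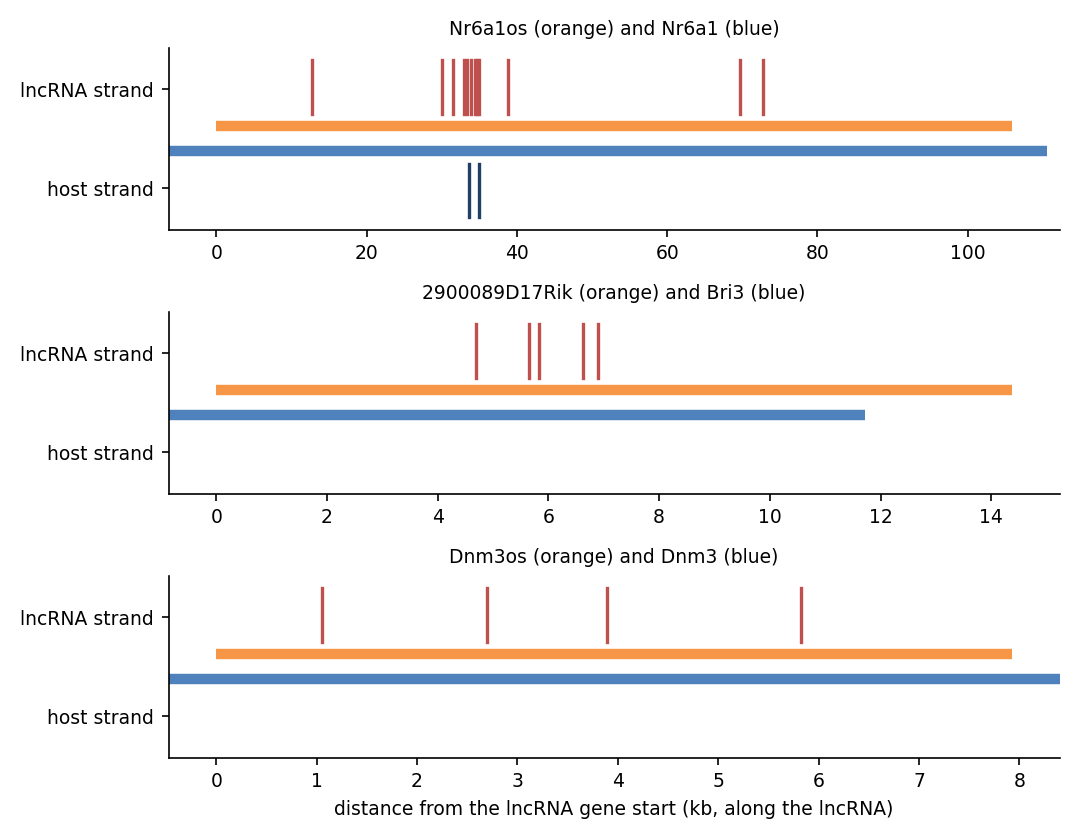
Peaks in the 3 antisense lncRNAs with the most peaks on their own strand, by distance from the lncRNA gene start (kb, along the lncRNA). Vertical lines are peaks on the lncRNA's strand (above, red) or the host's (below, dark blue), orange bars lncRNA genes and blue bars host genes; Nr6a1os has 12 above and 2 below, 2900089D17Rik 5 above and Dnm3os 4 above.

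Peaks were also set against the length of the overlap. The annotation held 2764 antisense overlaps of autosomal genes with known strands. In 129 of them (4.67%) the host's strand carried a peak, in 11 (0.398%) the lncRNA's did, and 2626 had none. To leave out the choice of pairs by their peaks, hosts with at least 10 peaks on their own strand were taken, whether or not a peak was shared, unless lncRNA genes covered more than 90% of the host, which left out only Adnp. In 172 such hosts with antisense lncRNAs, 466 of 6376 host-strand peaks lay in the overlap, where its share of each host's length gave 640.4, a ratio of 0.728. In 76 of these hosts the length gave under 1 peak, so that only a count of 0 could lie below it. Among the other 96, the number was above that by length in 25 and below it in 71, with no peak in the overlap in 37. Srgap2 had 29 against 49.5, Ankrd11 19 against 30.7 and Grip1, a synaptic scaffold gene, 7 against 20.8. Tcf7l1 had 0 against 39.7, its 18 shared peaks being in an lncRNA whose strand was not used. Olfm2 went the other way with 27 against 12.7, as did Itfg1, with 15 against 4.87 and every peak in the overlap.

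For same-strand lncRNAs, 28 hosts had 157 peaks in the overlap against 73.9 by length, a ratio of 2.12. Ctnnd2 alone gave 82 of these against 14.4, and without it the ratio was 1.26. Larp1, an RNA-binding protein gene, had 13 of its 31 peaks in Gm51897. Among the 18 hosts where the length gave at least 1 peak, the number was above it in 9 and below it in 9. No test was made of the difference between orientations, and peaks in a gene cluster, so a length-based number is a description.

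**Figure D4:**
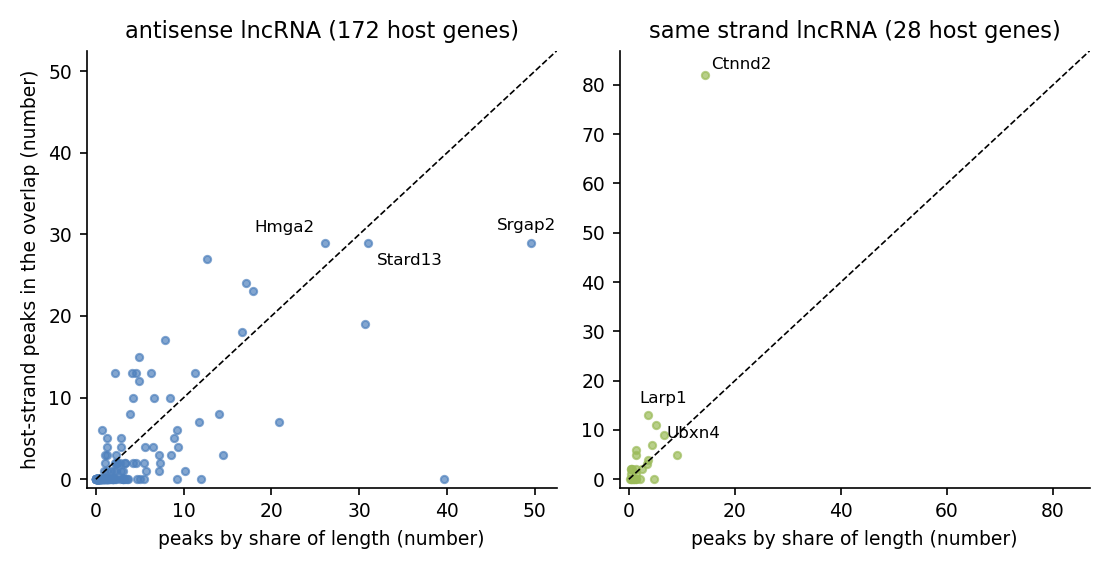
Host-strand peaks in the overlap with lncRNA genes (vertical axis, number) against the number given by the overlap's share of the host's length (horizontal axis, number), for hosts with at least 10 peaks; each point is a host, and the dashed line marks equal numbers. Of the 96 hosts with antisense lncRNAs (left) where the length gave at least 1 peak, 71 lie below the line, and Ctnnd2 stands far above it among hosts with lncRNAs on the same strand (right) (82 against 14.4).

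Within the pairs that had at least 3 shared peaks and peaks elsewhere, the density of the shared stretch was a median of 2.2 times that of the rest of the host, and above it in 69 of 97. These pairs were taken for having shared peaks, which raises the ratio, so it is not support for denser binding. Gm41284 held 1.80 peaks per kb, where the rest of Ctnnd2 had 0.0908. LOC115486929 held 2.44 per kb in Gpm6a, against 0.285 elsewhere, whereas the part of Srgap2 under Gm51644 had 0.276 against 0.620.

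The length and spacing of the shared peaks were set beside those of other peaks. Their median length was 156 bases (25th to 75th percentile, 123 to 201), where peaks in 1 protein-coding gene only had 153 (122 to 201) and those in 1 lncRNA gene only 151 (122 to 196). Neighbouring shared peaks of a host and strand lay a median of 489 bases apart, as did those in protein-coding genes only. In antisense pairs, the median length was 157 bases on the lncRNA's strand and 155 on the host's. By chromosome, the shared peaks made up between 1.03% (chromosome 19) and 7.01% (chromosome 15, which carries Ctnnd2) of the autosomal peaks.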

How the data were processed

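Per the labels' protocols, crosslinked RNA was pulled down with an antibody to DHX9 or with IgG, and barcodes told antibodies and replicates apart. The authors deposited 1 list of peaks, made with PEAKachu per the file, with start and end bases and a strand but no other value. The submitters' processing notes name Bowtie2 2.2.6, hg19 and mm10; mouse peaks were read as mm10. How the caller was set and where multiply mapping reads were placed is not given in the sources used here.

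Gene spans and kinds came from a RefSeq table of GRCm38.p6, and strands from RefSeq promoter windows of the same build (1 strand per gene). Exons and a genome sequence were not used. Peaks were given to each gene that spans their midpoint. Counts were made with pandas 2.3.3 and Wilson intervals with SciPy 1.17.1; the counting was tested on simulated data. No test between samples was possible. Members and lists were chosen with earlier results of these data known, and the share of peaks on the lncRNA's strand in antisense pairs and the comparison by length were added after seeing the data.

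Named genes were the 15 hosts and 15 lncRNA genes with the most shared peaks, up to 20 lncRNA genes with opposite peaks, up to 5 evenly split pairs, and up to 10 lncRNA genes with at least 3 shared peaks and peaks outside; any other gene was picked once its values were known. A few of the genes so named are neither given nor plotted here. Alternatives changed the overlap rule, peak length, merging, the minimum of peaks elsewhere, the gene models and the hosts.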

Additional observations from a re-analysis of the deposited data

How the results depend on the processing

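The list names no library, so no replicate could be left out and depth sets an unknown limit. No paired analysis was possible because the deposited list holds no value per replicate. The number of shared peaks was 688 with peaks of the median length or longer (fewer by construction) and 256 with lncRNA genes that are not predicted. The share opposite to the host's other peaks (0.894%) became 4.61% (7 of 152) without predicted lncRNAs and 2.83% (30 of 1059) by annotated strand, which adds hosts without peaks elsewhere. The share for protein-coding genes only (0.13%) became 0.0375% with the longer peaks, 0.0473% with at least 10 peaks elsewhere and 0.472% by annotated strand. Pairs with most shared peaks opposite numbered 7 of 198, and 3 of 121 with the longer peaks, which leave fewer pairs. The share on the lncRNA's strand in antisense pairs (4.92%) became 14.6% (26 of 178) without predicted lncRNAs and 2.95% without Nr6a1os, both added after seeing the data. The same-strand ratio of 2.12 became 1.26 without Ctnnd2. Beyond the construction of each setting, the cause was not tested. The antisense ratio stayed between 0.706 and 0.799 in the 4 alternatives run.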
